A study of Mus musculus with 8 samples.

Results

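Both arms of the miR-140, miR-335, miR-423 and miR-328 hairpins were followed in cells and extracellular vesicles (EVs). These 8 mature miRNAs, of 1978 mouse miRNAs in the count table, were taken because the EV/cell ratio of an arm of each hairpin was raised in shPCBP2 in these same libraries. They were thus selected on measured EV/cell ratios. The arms with the raised ratio were mmu-miR-140-5p, mmu-miR-335-5p, mmu-miR-423-3p and mmu-miR-328-3p. Their partner arms, mmu-miR-140-3p, mmu-miR-335-3p, mmu-miR-423-5p and mmu-miR-328-5p, were added as the other arm of the same hairpin. How the EV/cell ratio of a member differed between the shRNAs, and the differences in cells and in EVs that make it up, are therefore given as a description with no test, and the rule states no cutoff.

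Small RNA was sequenced from 3A cells, an untransformed mouse hepatocyte line, and from EVs collected by ultracentrifugation of the medium that the cells had conditioned for 72 h in EV-depleted serum. The cells and EVs of both shRNAs gave 4 groups with 2 biological replicates each, called cell shCTR and cell shPCBP2, and EV shCTR and EV shPCBP2. The shCTR cells expressed a scrambled shRNA and the shPCBP2 cells an shRNA targeting PCBP2, and all of them carried the retroviral pSUPER vector and had been selected with puromycin. PCBP2 is an RNA-binding protein of the poly(C)-binding family, and the study asked whether it governs how miRNAs are divided between cells and EVs. Each condition rests on a single shRNA in a single cell line. Small RNA libraries carry no PCBP2 mRNA, so the knockdown itself was not checked here.

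A miRNA hairpin is cut by Drosha and then by Dicer into a short duplex, with a 5p strand from the 5′ side of the hairpin and a 3p strand from the other side. An Argonaute protein keeps a strand of the duplex as the guide, which recognises targets mainly through its seed (bases 2 to 8), and the other strand is usually degraded. Since both arms of a hairpin come from the same precursor, the ratio of their reads describes arm usage, and within a library it needs no scaling. miR-140 is best known from cartilage, miR-335 is encoded within the imprinted gene Mest, and miR-423 yields reads from both arms in many tissues.

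The mature sequences show how different the arms of a hairpin are as RNA molecules, since each arm has its own seed and base composition. Of the 8 members, 5 had a sequence in the RefSeq table for GRCm38.p6, and miR-140-5p, miR-328-3p and miR-328-5p are named only. The sequences are written 5′ to 3′ with the seed in capitals.
miR-140-3p: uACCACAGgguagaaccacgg
miR-335-5p: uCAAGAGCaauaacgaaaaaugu
miR-335-3p: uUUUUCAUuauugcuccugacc
miR-423-5p: uGAGGGGCagagagcgagacuuu
miR-423-3p: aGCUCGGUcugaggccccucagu
These arms are 21 to 23 bases long, so their levels were compared without a length correction. The miR-335 arms had the lowest share of G and C, 30.4% for miR-335-5p and 36.4% for miR-335-3p, against 57.1% for miR-140-3p, 56.5% for miR-423-5p and 65.2% for miR-423-3p. No seed was shared among the 5 arms. The seed of miR-140-3p also occurs in miR-497b and that of miR-423-5p in miR-6921-5p, neither of which had enough reads to be tested. No other mouse mature miRNA lay within 2 edits of any of the 5.

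Short strings of letters taken from the motifs considered in the study were searched on the mature strand alone. AUUA and AUUG, the core of a motif linked to retention in cells, were found in miR-335-3p, where AUUA starts at base 7 and AUUG at base 10, so that they share the A at base 10. They were absent from the other 4 arms. Of 1679 mouse mature sequences, 2.50% hold AUUA and 6.79% hold AUUG. GGCU, contained in the hEXO sequence that the study inserted into another miRNA, was in none of the 5 arms and is in 13.3% of mature sequences. The hEXO motif linked to export allows several bases at each position and was not searched. Whether these arms hold it is therefore not given here.

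In GRCm38 coordinates, miR-140-3p lies at chr8:107551288-107551308 on the plus strand. Its hairpin gene Mir140 spans chr8:107551244-107551313, inside Wwp2 on the same strand, where 4 annotated transcripts of the host span it and 1 has an exon that overlaps it. miR-335-5p lies at chr6:30741314-30741336 and miR-335-3p at chr6:30741354-30741375, both on the plus strand. Their hairpin gene Mir335 (chr6:30741299-30741396) is in an intron of all 7 Mest transcripts that span it. miR-423-5p lies at chr11:77078122-77078144 and miR-423-3p at chr11:77078086-77078108, both on the minus strand, in Mir423 (chr11:77078064-77078172), which is in an intron of the 2 spanning Nsrp1 transcripts. Mir328 spans chr8:105308364-105308460 on the minus strand, opposite to Elmo3, whose exons overlap it in all 3 transcripts that span it.

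Each library gave between 26391248 and 38166798 counts. The spike-in cel-miR-39 took 57.4% to 66.9% of them in cells and 97.6% to 98.4% in EVs, which left 8745848 to 12732173 counts on mouse miRNAs in cells and 503070 to 687592 in EVs. The 8 members together made up 0.103% to 0.136% of the mouse counts in cells and 0.741% to 1.17% in EVs. Levels below are reads per 1000000 spike-in reads. The level of a compartment depends on how much RNA entered each sample, and in these bulk libraries fewer cells or vesicles and less RNA in each cannot be told apart. The summed level of 7 miRNAs typical of blood cells and serum was 4.76 to 15.9 in cells and 1243 to 1696 in EVs. Among these 7, miR-451a, miR-144-3p, miR-142a-3p and miR-142a-5p had 0 reads in every cell library. All 7 had reads in both EV groups, where the sum was 1464 to 1696 in shCTR and 1243 to 1290 in shPCBP2. Of the hepatocyte markers, miR-122-5p had only 356 to 485 counts in the cell libraries. The 4 markers summed to 13024 to 20412 in cells and 206 to 313 in EVs, mostly through miR-194-5p. They did not go the same way. The fitted log2 EV-cell difference was 1.08 for miR-122-5p and 3.54 for miR-148a-3p. It was -6.79 for miR-194-5p, and miR-192-5p was also lower in EVs, with 0 reads in EV shPCBP2. The part of serum-type miRNAs in the EV values of the members was not tested.

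mmu-miR-140-5p was the most abundant member in cells. It was counted 10225 and 8659 times in shCTR cells, 6857 and 7266 in shPCBP2 cells, 167 and 63 in shCTR EVs, and 608 and 159 in shPCBP2 EVs. Its level was 562 ± 16.6 (SD, n = 2) in cell shCTR and 398 ± 13.6 (SD, n = 2) in cell shPCBP2. In EVs it was 4.22 ± 2.54 (SD, n = 2) in shCTR and 10.7 ± 7.75 (SD, n = 2) in shPCBP2. The cell groups did not overlap, while in EVs the lower shPCBP2 library (5.23) lay below the higher shCTR library (6.01). On the log2 scale the fitted ratio of EVs to cells was 1.84 higher in shPCBP2 (SE 0.96), with a change of -0.50 in cells and 1.34 in EVs. Without EV shPCBP2 replicate 1 the ratio change was 0.81, and without EV shCTR replicate 1 it was 2.64.

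Its partner miR-140-3p was counted 868 and 983 times in shCTR cells, 509 and 631 in shPCBP2 cells, 159 and 129 in shCTR EVs, and 123 and 36 in shPCBP2 EVs. Its level was 55.6 ± 9.74 and 32.1 ± 4.64 in the shCTR and shPCBP2 cells, and 5.34 ± 0.545 and 2.23 ± 1.48 in the corresponding EVs (SD, n = 2 each). The shPCBP2 libraries were the lower ones in both compartments, with no overlap. The fitted ratio change was -0.47 (SE 1.09), the opposite sign to that of the 5p arm. It was 0.09 without EV shPCBP2 replicate 2 and -1.38 without EV shPCBP2 replicate 1. In cells the log2 changes of both arms, -0.50 and -0.79, were near or below the median of -0.49 over all 180 miRNAs tested. In EVs, where the median was -0.54, the 5p arm (1.34) ranked 10 of 180 from the highest and the 3p arm (-1.26) ranked 148.

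miR-335-5p, known from the Mest locus, was counted 221 and 314 times in shCTR cells, 29 and 32 in shPCBP2 cells, 150 and 112 in shCTR EVs, and 429 and 88 in shPCBP2 EVs. Its level was 16.2 ± 5.34 and 1.72 ± 0.108 in the shCTR and shPCBP2 cells, and 4.85 ± 0.778 and 7.16 ± 6.03 in the corresponding EVs (SD, n = 2 each). Both shPCBP2 cell libraries were below both shCTR cell libraries, at a level 9.16-fold lower by geometric means. In EVs the shPCBP2 libraries, at 11.4 and 2.89, lay on either side of the shCTR libraries, at 5.40 and 4.30. The order of the groups was cell shCTR, EV shPCBP2, EV shCTR and cell shPCBP2, and the EV groups did not differ beyond their spread. The fitted ratio change of 3.79 (SE 1.39) was made up of -3.23 (SE 1.03) in cells and 0.56 (SE 0.95) in EVs. The change in cells ranked 178 of 180 from the highest, and the change in EVs ranked 23. Without EV shPCBP2 replicate 1 the ratio change was 2.48.

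miR-335-3p, the arm with the AUUA and AUUG letters, was sparse. It was counted 47 and 27 times in shCTR cells, 0 and 2 times in shPCBP2 cells, 53 and 0 times in shCTR EVs, and 0 times in either library of shPCBP2 EVs. It missed the filter, which asks for at least 1 read in 2 libraries of each compartment, and was not tested. In cells both arms of the hairpin were lower in both shPCBP2 libraries. All the EV reads of miR-335-3p came from EV shCTR replicate 1.

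miR-423-5p was the member with the highest level in EVs, where it ranked 27 to 45 among mouse miRNAs, against 93 to 101 in cells. It was counted 4964 and 4447 times in shCTR cells, 3062 and 4490 in shPCBP2 cells, 5716 and 4025 in shCTR EVs, and 5429 and 2780 in shPCBP2 EVs. Its level was 281 ± 2.89 and 213 ± 55.5 in the shCTR and shPCBP2 cells, and 180 ± 36.2 and 118 ± 37.6 in the corresponding EVs (SD, n = 2 each). The shPCBP2 libraries were the lower ones in both compartments. The fitted ratio change was -0.21 (SE 0.64). It lay between -0.58 and 0.08 when each library was left out in turn, the lowest without EV shPCBP2 replicate 1.

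miR-423-3p, the arm chosen for its ratio, was counted 706 and 641 times in shCTR cells, 321 and 309 in shPCBP2 cells, 380 and 478 in shCTR EVs, and 556 and 563 in shPCBP2 EVs. Its level was 40.2 ± 0.795 and 17.8 ± 0.601 in the shCTR and shPCBP2 cells, and 16.0 ± 3.31 and 16.7 ± 2.62 in the corresponding EVs (SD, n = 2 each). The cell groups stood well apart, and the other 3 groups, cell shPCBP2 included, overlapped. The fitted ratio change of 1.23 (SE 0.94) consisted of -1.18 (SE 0.67) in cells and 0.06 (SE 0.66) in EVs. It lay between 1.04 and 1.46 with each library left out in turn.

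miR-328-3p is the dominant arm of its hairpin. It was counted 178 and 188 times in shCTR cells, 70 and 236 times in shPCBP2 cells, 0 times in either library of shCTR EVs, and 116 and 101 times in shPCBP2 EVs. The cell groups overlapped, at levels of 9.99 and 11.9 in shCTR and of 3.97 and 13.2 in shPCBP2. In EV shPCBP2 the levels were 3.09 and 3.32. By counting error alone a count of 0 allows up to 3 counts, which would correspond to 0.108 and 0.115 in the EV shCTR libraries. With 3 counts in each EV shCTR library, the EV level was 28.7-fold higher in shPCBP2 and the EV/cell ratio 43.3-fold higher. These limits cover counting error only. EV replicates can differ by more, as miR-335-3p did with 53 and 0 counts in EV shCTR. miR-328-3p was chosen by this ratio and passed the filter in EVs only through the shPCBP2 libraries. The value for the EV/cell ratio was 23.7-fold without cell shPCBP2 replicate 1 and 79.1-fold without cell shPCBP2 replicate 2.

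miR-328-5p was counted 46 and 41 times in shCTR cells, 12 and 14 times in shPCBP2 cells, and 0 in all 4 EV libraries. In cells its level was 2.59 ± 0.0174 in shCTR and 0.733 ± 0.0747 in shPCBP2 (SD, n = 2 each), 3.55-fold lower by geometric means, and the groups did not overlap. Like miR-335-3p, it missed the filter and was not tested.

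**Figure D1:**
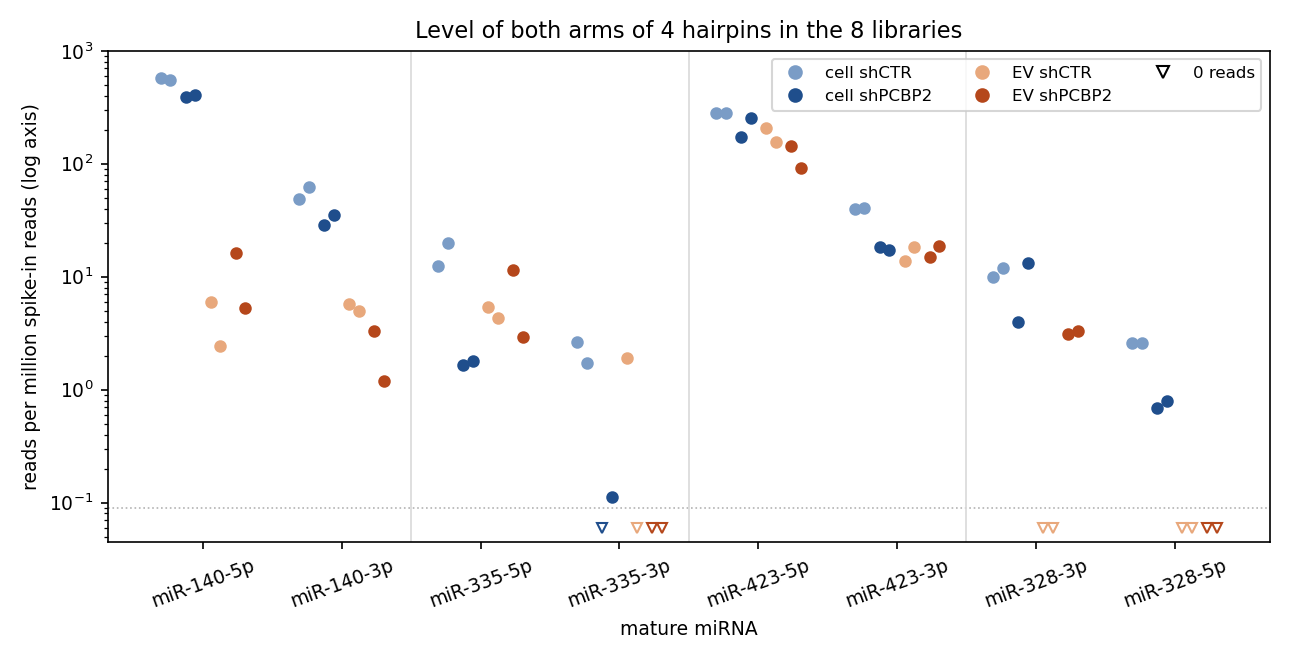
Level of each of the 8 mature miRNAs in the 8 libraries, in reads per 1000000 spike-in reads on a log axis, with a point for each library, coloured by group, and open triangles for libraries with 0 reads. miR-140-5p lies at 562 in cell shCTR and 4.22 in EV shCTR by group means, while miR-423-5p stays between 91.4 and 283 in all 8 libraries, and miR-328-3p has no reads in EV shCTR.

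Over all 180 tested miRNAs, 2.22% differed in EV/cell ratio between the shRNAs when the threshold was a Benjamini-Hochberg adjusted p under 0.05 in edgeR, and 0.556% had a higher ratio in shPCBP2. The 6 members that passed the filter were chosen by this contrast, so their calls in it are not counted. In cells, 5 of the 6 had both shPCBP2 libraries below both shCTR libraries, the exception being miR-328-3p, and 66.7% of all tested miRNAs did so. In EVs, miR-328-3p alone of the 6 had both shPCBP2 libraries above both shCTR libraries, a pattern seen in 5.56% of all tested miRNAs. miR-140-3p and miR-423-5p had both below, as did 42.2% of all tested miRNAs. The values that chose the members are part of these counts, and nothing is read from them. 

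**Figure D2:**
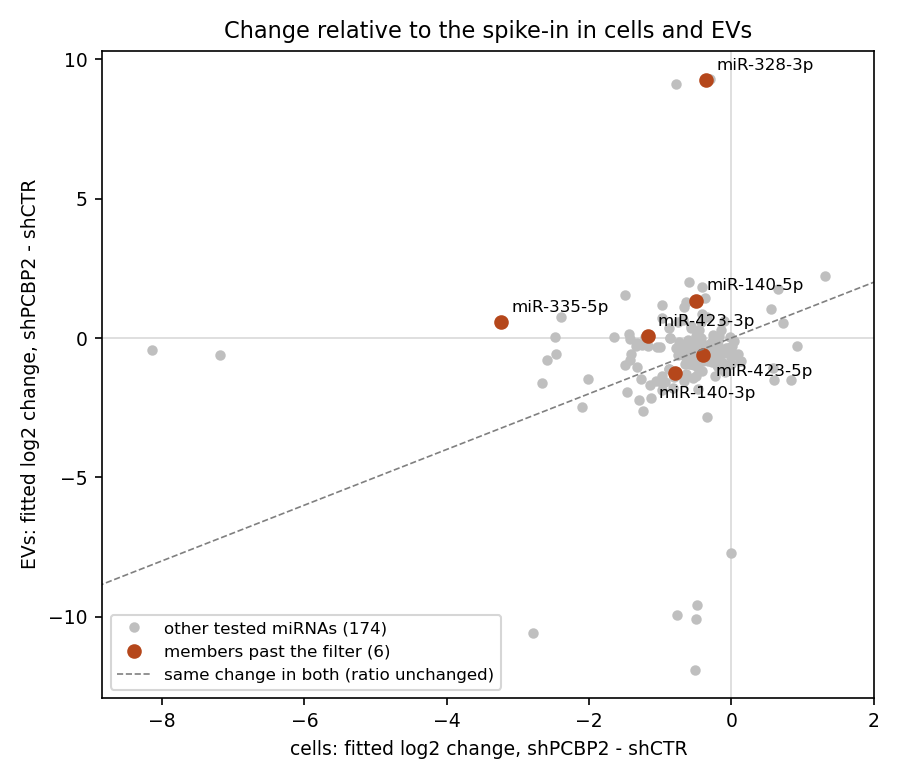
Fitted log2 change between shPCBP2 and shCTR in cells (horizontal axis) and in EVs (vertical axis), relative to the spike-in, for the 6 members past the filter and the other 174 tested miRNAs, with a dashed line where both changes are equal. miR-335-5p lies far to the left at -3.23 in cells, miR-140-5p lies at 1.34 in EVs, both 3p and 5p arms of miR-423 lie near 0 or below in EVs, and the position of miR-328-3p on the vertical axis depends on the model's prior count because EV shCTR had no reads.

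To compare the compartments, the EV-cell difference was averaged over shCTR and shPCBP2, with the same weight and sign for both shRNAs. Such a mean would be independent of the ratio change if the groups had equal spread, but the SD of miR-140-5p and miR-335-5p was larger in EV shPCBP2 than in EV shCTR, and for miR-328-3p the EV shCTR libraries at 0 reads entered both. The means of the 4 arms chosen for their ratio are therefore given with no test. Their partners miR-140-3p and miR-423-5p were not the arms with the raised ratio and were tested, although they were read in the same libraries. Whether a partner's own ratio entered the choice is not stated by the rule. The EV SD of miR-140-3p was also unequal, at 0.545 in shCTR and 1.48 in shPCBP2, so its p rests on an assumption of equal spread that was not met. Over all tested miRNAs the median difference was -4.94 on the log2 scale, and 79.4% differed at an adjusted p under 0.05 in edgeR, with 71.1% lower in EVs. This split rests on the spike-in, with 15 miRNAs higher and 128 lower, against 51 and 47 with TMM factors, 52 and 46 with median-of-ratios factors, and 63 and 41 with the total mouse miRNA count.

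The EV-cell difference of miR-140-5p was -6.14 on the log2 scale (SE 0.59). It kept its sign under the other scalings, and was -1.09 with the total mouse miRNA count. miR-140-3p was lower in EVs, with a difference of -3.61 (SE 0.61, edgeR adjusted p = 0.00166) relative to the spike-in. That sign was reversed under the other scalings, at 1.02 with TMM, 1.13 with median-of-ratios factors and 1.47 with the total count. The other scalings placed the median of all tested miRNAs at -0.28, -0.18 and 0.15. Relative to the median, miR-140-5p was low and miR-140-3p high in EVs. A scaling shifts all miRNAs of a library alike, so the same position under each of the 4 scalings adds no support. By rank from the highest EV-cell difference, miR-140-3p stood at 58 and miR-140-5p at 137 of 180.

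The difference of miR-335-5p was 0.16 (SE 0.67), and -0.49 without EV shPCBP2 replicate 1. That of miR-328-3p was -6.23, a fitted value that depends on the prior count, and that of miR-423-3p was -0.71 (SE 0.47). miR-423-5p differed by -0.74 (SE 0.32, edgeR adjusted p = 0.0711). The difference of miR-423-5p was -0.93 without EV shPCBP2 replicate 1 (edgeR adjusted p = 0.0316). It did not pass edgeR's test with all libraries, and passed with DESeq2 (adjusted p = 0.0117) and when at least 10 counts were asked of every library (edgeR adjusted p = 0.0305). miR-335-5p, miR-423-3p and miR-423-5p ranked 27, 32 and 33 of 180, above most miRNAs, and under the other scalings all 3 were higher in EVs, at 4.78 to 5.23 for miR-335-5p, 3.94 to 4.36 for miR-423-3p and 3.91 to 4.34 for miR-423-5p. In the mean over both shRNAs, the arms of miR-423 were thus placed next to each other, and those of miR-140 far apart. For miR-140 the gap was wider in shCTR, at -7.06 for the 5p arm and -3.38 for the 3p arm. In shPCBP2 they stood at -5.22 and -3.84, with miR-140-5p close to the median of -4.90 over all tested miRNAs. These values hold the reads that chose miR-140-5p, so the contrast between the hairpins is a description.

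Arm usage was then examined as the share of 5p reads among the reads of both arms, with exact Clopper-Pearson intervals at the 95% level that cover counting error only. In cells, miR-140 was read mainly from its 5p arm, which held 92.2% and 89.8% of the reads in shCTR and 93.1% and 92.0% in shPCBP2, with interval bounds between 89.2% and 93.7% over the 4 libraries. In EV shCTR the 5p share was 51.2% (45.7% to 56.8%, 326 reads) and 32.8% (26.2% to 39.9%, 192 reads). In EV shPCBP2 it was 83.2% (80.3% to 85.8%, 731 reads) and 81.5% (75.4% to 86.7%, 195 reads). All EV shares were below all cell shares, and the EV shPCBP2 shares were above the EV shCTR shares and below those of the cells.

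On the log2 scale of the 5p/3p ratio, with 0.5 added to each count, miR-140 stood at 3.56 and 3.14 in shCTR cells, 3.75 and 3.52 in shPCBP2 cells, 0.07 and -1.03 in shCTR EVs, and 2.30 and 2.13 in shPCBP2 EVs. The EV-cell difference averaged over the shRNAs was -2.62 (SE 0.78), and no test of it is given, since it holds the reads that chose miR-140-5p and the EV groups differed in spread. It lay between -2.90 and -2.35 with each library left out in turn. In the other 7 alternatives, most of which leave this ratio as it was, it lay between -2.63 and -2.52. Of the 21 hairpins with both arms past the filter, 38.1% had EV and cell libraries that did not overlap, and 19.0% had an adjusted p under 0.05 in limma.

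The difference was -3.83 in shCTR and -1.42 in shPCBP2. Arm usage of miR-140 in shPCBP2 against shCTR differed by 2.69 (SE 1.10) towards the 5p arm in EVs, and by 0.29 in cells, where the shares of the groups overlapped. Both values hold the reads that chose miR-140-5p and are a description. In EVs, 28.6% of the 21 hairpins had both shPCBP2 libraries outside the shCTR range on the same side, and in cells 61.9% had. The count of 5p reads in EV shPCBP2 was uneven, at 608 and 159, and that of 3p reads was 123 and 36, so the arm ratio was more alike between the replicates than either arm.

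miR-423 was read mainly from its 5p arm in every library. The 5p share was 87.5% and 87.4% in shCTR cells, 90.5% and 93.6% in shPCBP2 cells, 93.8% and 89.4% in shCTR EVs, and 90.7% and 83.2% in shPCBP2 EVs. Interval bounds ran from 81.8% to 94.4% over the 8 libraries, and the range of the shares in EVs enclosed that in cells. The EV-cell difference of the log2 arm ratio was -0.04 (SE 0.58), again with no test, the smallest of the 21 hairpins in size. Its sign was positive, at 0.12, 0.17 and 0.21, without cell shPCBP2 replicate 2, EV shCTR replicate 2 and EV shPCBP2 replicate 2. By shRNA it was 0.69 in shCTR and -0.76 in shPCBP2. Between shPCBP2 and shCTR, arm usage differed by 0.75 (SE 0.82) towards the 5p arm in cells and by -0.70 (SE 0.82) in EVs. In cells both shPCBP2 shares were above both shCTR shares, and by geometric means the level of miR-423-3p was 2.26-fold lower in shPCBP2 and that of miR-423-5p 1.34-fold lower.

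**Figure D3:**
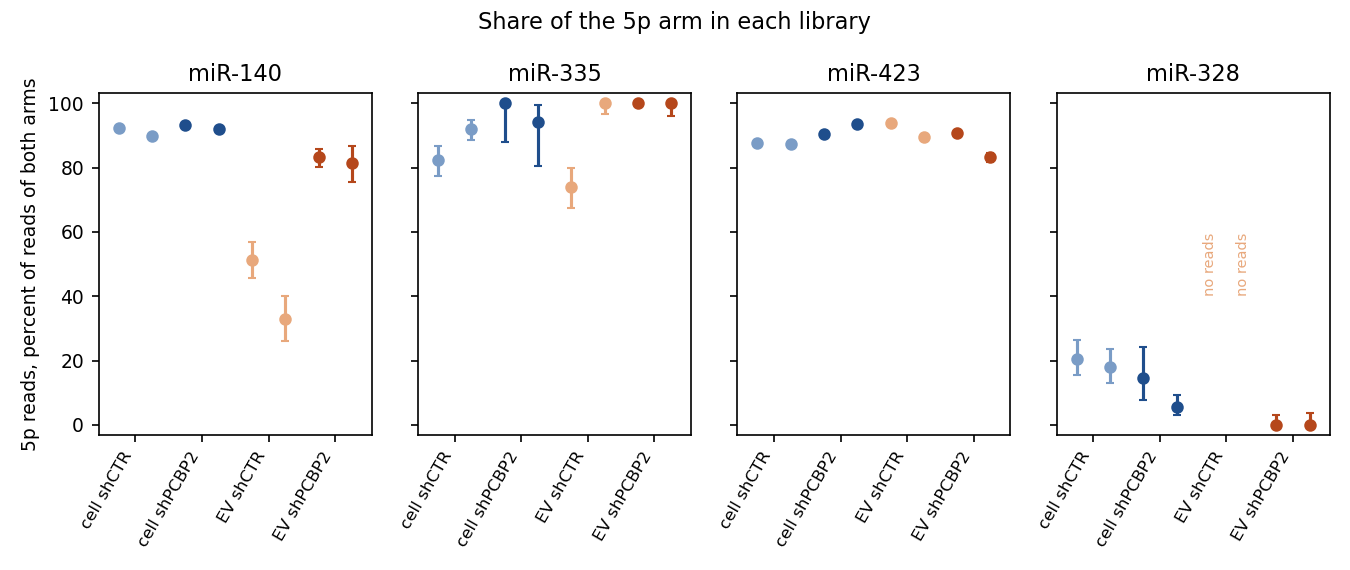
Share of 5p reads among the reads of both arms, in percent, for each hairpin and library, with exact 95% intervals from counting error as bars, and colours for the 4 groups. miR-140 lies at 89.8% to 93.1% in cells and at 32.8% and 51.2% in EV shCTR, and stands at 81.5% and 83.2% in EV shPCBP2, miR-423 stays between 83.2% and 93.8%, and miR-328 has no reads in EV shCTR.

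miR-335 was also read mainly from its 5p arm. In cell shCTR the share was 82.5% (77.4% to 86.8%) and 92.1% (88.7% to 94.7%). In cell shPCBP2 it was 100% of 29 reads (lower bound 88.1%) and 94.1% of 34 reads (80.3% to 99.3%), which at this depth could not be separated from the range of the shCTR libraries. In EV shCTR the replicates disagreed, with 73.9% (67.3% to 79.8%) in replicate 1 and 100% (lower bound 96.8%) in replicate 2. In EV shPCBP2 the 3p arm had 0 of 429 and 0 of 88 reads, with upper bounds of 0.856% and 4.11% from counting error alone. Since EV shCTR replicate 2 also had none, the 3p reads did not separate the EV groups.

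miR-328 was the hairpin with a dominant 3p arm. Its 5p share in cells was 20.5% (15.4% to 26.4%) and 17.9% (13.2% to 23.5%) in shCTR, and 14.6% (7.80% to 24.2%) and 5.60% (3.10% to 9.22%) in shPCBP2. The shPCBP2 shares were the lower ones, and the interval of cell shPCBP2 replicate 2 lay below those of both shCTR libraries. EV shCTR had no read of either arm, so no arm usage could be given. In EV shPCBP2 the 5p arm had 0 of 116 and 0 of 101 reads, with upper bounds of 3.13% and 3.59% from counting error alone. These bounds were below all 4 cell shares, but within the interval of cell shPCBP2 replicate 2. The EV reads of miR-328 were thus from the arm that dominates in cells, where the 4 libraries held 82 to 250 reads of both arms.

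Across the 21 hairpins the median EV-cell difference of the log2 arm ratio was -0.10. The median of its size was 2.62, the value of miR-140 itself, which ranked 11 in size. Only 6 hairpins, miR-140 and miR-423 among them, had at least 10 counts of both arms in every library. Low counts of the other hairpins thus enter this rank and the replicate differences below. Of 21, 4 passed the limma test at an adjusted p under 0.05. In the mean over both shRNAs, usage shifted towards the 5p arm in EVs for miR-17 (4.74) and miR-28a (1.10). It shifted towards the 3p arm for let-7d (-4.45) and miR-151 (-0.77). None of the 21 passed when any of the 4 cell libraries was left out. The value for miR-17 rested mainly on shPCBP2, where the difference was 8.32, against 1.15 in shCTR. The fitted EV change of miR-17-3p between shPCBP2 and shCTR was -9.58, which leaves few or no 3p reads in EV shPCBP2. The size of the miR-17 shift therefore depends on the pseudocount of 0.5. The log2 arm ratio of miR-17 in EV shCTR replicate 2, 5.94, lay within the range of the cell libraries. The arm ratios were less repeatable in EVs than in cells. The median absolute difference between replicates was 0.19 and 0.23 in the shCTR and shPCBP2 cells and 2.21 and 2.74 in the corresponding EVs, against which the EV replicates of miR-140 and miR-423 were close.

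**Figure D4:**
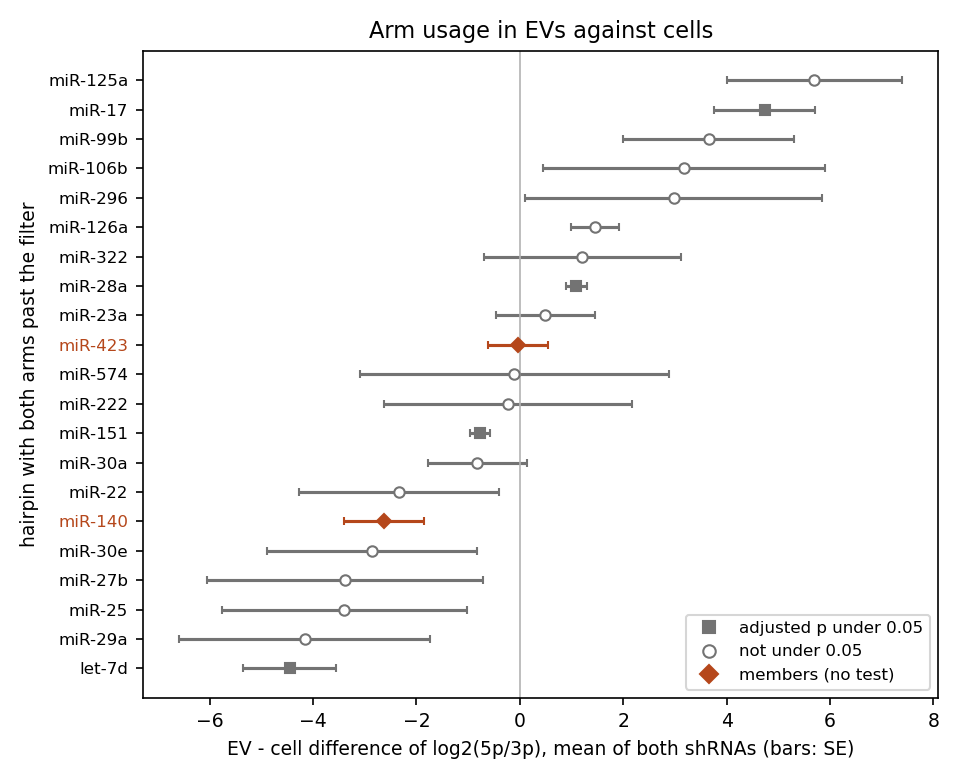
EV-cell difference of the log2 ratio of 5p to 3p reads, averaged over shCTR and shPCBP2, with bars for the SE from limma, for the 21 hairpins with both arms past the filter, ordered by the difference. Filled squares mark the 4 hairpins with an adjusted p under 0.05, open circles the others, and coloured diamonds the hairpins given with no test, miR-140 at -2.62 and miR-423 at -0.04.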

How the data were processed

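Samples were grouped by their titles. Replicate numbers are those of the titles, from which the descriptions differ for shPCBP2. Libraries were made with the NEXTFLEX Small RNA-Seq kit after addition of cel-miR-39. The authors trimmed the reads, kept forward reads, aligned them to miRBase hairpins plus the spike-in with mirPRo, which runs NovoAlign, and deposited raw counts per mature miRNA, printed to 6 significant digits from 1000000 upwards. The table has 1980 rows, and all its sample columns were used. Reads are shares of a library as captured by the kit, and no molecular identifiers entered the counts, so intervals and floors cover counting error only. Replicates differed by more than sampling noise in all 4 groups (chi-square per degree of freedom 108 to 339), so no library was counted as a repeat of another.

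From the counts, levels were expressed per 1000000 spike-in reads. A miRNA was tested if at least 2 cell and 2 EV libraries each had a read of it (180). edgeR 4.0.16 (quasi-likelihood) was run with spike-in counts setting the library sizes, a prior count of 0.125 and a mean for each of the 4 groups (common dispersion 0.693, 4 residual and 2.10 prior degrees of freedom). SEs were obtained from the F statistic. Hairpins were paired by name, and arm ratios with a pseudocount of 0.5 were tested with limma 3.58.1 with a trend on the lower arm (prior degrees of freedom 1.80). Benjamini-Hochberg adjustment covered all features tested. An exact permutation test of 2 libraries against 2 could not reach the threshold, so tests between shRNAs rest on the models alone. R 4.3.3, DESeq2 1.42.0, Python 3.11.15, pandas 2.3.3, numpy 2.4.6, scipy 1.17.1 and matplotlib 3.10.9 were used.

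The members, marker lists (hepatocyte, blood cells and serum, endothelium, muscle) and tests were chosen with earlier results of these data known. The tests of EVs against cells assumed groups of equal spread. The EV groups differed in spread, so no p is given for the arms chosen for their ratio or for arm usage of the members. The miRNAs named are the 8 members, the tested miRNA most like each of the 4 arms the rule turned on, and up to 3 called hairpins in each direction for arm usage. Marker miRNAs and their levels are given as a check. The alternatives were other scalings (TMM factors, median-of-ratios size factors, total mouse miRNA count), other filters, DESeq2, a replicate block, a pseudocount of 1, edgeR's diffSpliceDGE, an exact permutation test and each library left out in turn. limma without the trend was added after seeing the data.

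On simulated data with the fitted spread, the edgeR step called 121 of 200 miRNAs changed by a log2 difference of 3 between EVs and cells and 7 of 700 unchanged ones, among 900. The limma step called 6 of 200 changed hairpins and 0 unchanged ones, among 1050. Before the change was added, cells and EVs were given the same mean level. The simulated EV counts were therefore higher than the real ones for most miRNAs, and these rates do not describe detection at the real EV depth.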

Additional observations from a re-analysis of the deposited data

How the results depend on the processing

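Some alternatives could not move a value. Leaving out a cell library does not enter a change in EVs, and another filter leaves an arm ratio as it was. The ratio changes of the arms chosen for their ratio are also counted, so the count of signs kept is no measure of stability. Of 260 values of single members and hairpins under the alternatives, these included, 242 kept their sign and 18 changed it. Of these 18, 5 were small changes of the EV/cell ratio, miR-140-3p reaching 0.09 with EV shPCBP2 replicate 2 left out, and miR-423-5p reaching 0.0025 with the total mouse miRNA count, 0.0095 without EV shCTR replicate 1, 0.082 without cell shPCBP2 replicate 2 and 0.081 without EV shPCBP2 replicate 2. Relative to the spike-in, the EV-cell difference of miR-140-3p reversed to 1.02 with TMM, 1.13 with median-of-ratios factors and 1.47 with the total mouse miRNA count. Under these scalings that of miR-423-3p reversed to 3.94, 4.06 and 4.36, and that of miR-423-5p to 3.91, 4.01 and 4.34. The scalings differ by construction, since the mouse miRNAs are a far smaller part of the EV libraries. Without EV shPCBP2 replicate 1, that of miR-335-5p was -0.49, the lowest of a range up to 0.50 with a library left out. Arm usage of miR-423 was 0.12 without cell shPCBP2 replicate 2, 0.17 without EV shCTR replicate 2 and 0.21 without EV shPCBP2 replicate 2, in a range from -0.28.

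The count of miRNAs whose EV/cell ratio differed between the shRNAs was 4 of 180, and was 13 with TMM (5 higher, 8 lower, against 1 higher and 3 lower), 2 with median-of-ratios factors, 14 with DESeq2 (9 higher, 5 lower) and 0 of 113 with at least 10 counts in every library, where 6 had an unadjusted p under 0.05 in edgeR. With a library left out it ranged from 0 to 12, with 0 without either cell shCTR library, cell shPCBP2 replicate 2 or EV shCTR replicate 2, 2 without cell shPCBP2 replicate 1 and 12 without EV shPCBP2 replicate 1. The count for EVs against cells was 143 of 180 (15 higher, 128 lower), 98 with TMM (51 higher, 47 lower), 98 with median-of-ratios factors (52 higher, 46 lower), 104 with the total count (63 higher, 41 lower), 398 of 800 with no filter, and 125 to 141 with a library left out. The count for arm usage was 4 of 21, 43 of 202 with no filter on the arms, and 0 by the exact permutation test, where 8 had an unadjusted p under 0.05. It ranged from 0 to 7 with a library left out, with 0 without any of the 4 cell libraries and 7 of 16 without EV shPCBP2 replicate 1. The causes were not tested.

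No pairing by the replicate numbers of the titles was seen, with correlations of deviations of 0.01, 0.09, 0.02 and -0.08 between same-numbered libraries. With 2 libraries in each group, these values do not show whether the samples were paired by design. A pairing by the descriptions, which number shPCBP2 differently, was not tested. With a replicate block the count for the EV/cell ratio was 1, for EVs against cells 140 and for arm usage 4, and the block changed no other call. EV depth limits the sparse arms, as a library with 0 reads allows up to 3 counts by counting error alone.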

Other observations

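Of 773 hairpins paired by name, 463 had a read of either arm, 106 had exactly 1 arm past the filter and 21 had both, so miR-335 and miR-328 were of the commoner kind and miR-140 and miR-423 of the rarer.

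The tested miRNA whose log2 level (with 1 added to the reads per 1000000 spike-in reads) was most like that of miR-140-5p over the 8 libraries was miR-125a-3p (r = 0.99). It had 9397, 7795, 6372 and 7922 counts in the cell libraries and 183, 0, 345 and 61 in the EV libraries, in the order shCTR 1 and 2 and shPCBP2 1 and 2. For miR-423-3p it was miR-350-3p (r = 0.93), which was absent from the first EV library of each shRNA and had 77 and 92 counts in the second. For miR-328-3p it was miR-345-3p (r = 0.93), which likewise had 0 reads in both EV shCTR libraries, and 126 and 73 in EV shPCBP2. miR-335-5p had no close match, the nearest being let-7d-3p (r = 0.68). These are descriptions over 8 libraries that share the gap between cells and EVs.

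Of the other marker lists, the 2 endothelial miRNAs summed to 110 to 170 reads per 1000000 spike-in reads in cells and 101 to 187 in EVs. The 3 muscle miRNAs summed to 696 to 1112 in cells, nearly all from miR-206-3p (12252 to 19342 counts), and to 3.46 to 5.85 in EVs.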
